A study of Mus musculus with 12 samples.

Results

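The comparison set cells named reprogrammed mammary against epithelial cells of the adult mouse mammary gland, across all genes on the array. Members were chosen by array title: 3 arrays carry reprogrammed mammary cells (replicates 1, 2 and 3) and 3 carry adult mammary cells (replicates 1, 2 and 4), together 6 of the 12 arrays of the study. The other 6 arrays hold adult lung and reprogrammed lung cells, which entered the same statistical fit. The adult donors were female mice of 10 weeks. Their mammary glands were minced and digested with trypsin and collagenase, and epithelium was enriched by 5 rounds of washes and slow spins. A cell sort is not mentioned. The protocols describe embryonic lung epithelium, separated from its mesenchyme, as a further cell source, and cells prepared in Matrigel for transplantation. The labels used here state neither strain nor genotype, nor the host, the site or the time after grafting for the reprogrammed cells. It is not stated either whether "mammary" in a reprogrammed sample names the donor cell or the organ rebuilt, or whether the 3 arrays of a group came from separate animals. The p-values therefore measure the spread between arrays, which may be technical.

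Each array gave 41174 distinct probes, collapsed to 32678 features. A level is the log2 processed signal after subtracting that array's own 75th percentile, which is therefore 0, and it says nothing on how one gene compares with another. Of the features, 24502 were tested. Among the 6 mammary arrays, 73.5% to 77.5% of probes were well above background on 5 arrays and 89.1% on adult replicate 4. The distance between the lowest and the highest decile of probe signals was 7.11 in log2 units on that array and 8.72 to 9.13 on the other 5. Correlations between arrays across 24195 features, which are not independent replicates, were 0.966 to 0.982 within reprogrammed mammary, 0.945 to 0.971 within adult mammary and 0.940 to 0.972 between these groups.

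The mammary gland is a branching epithelium with an inner luminal layer and an outer basal, myoepithelial layer. Luminal cells divide into hormone-sensing cells, which carry oestrogen and progesterone receptors and relay the signal to their neighbours by secreted factors, and secretory cells, which make milk proteins under prolactin. The epithelium lies in a fat pad with fibroblasts, vessels, immune cells and, in many dissections, a lymph node.

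Epcam, Elf5 and Esr1, epithelial and luminal genes, were well above background on all 6 mammary arrays. Epcam, an adhesion molecule of epithelial cells, stood at 4.76, 4.61 and 4.58 on the adult arrays and at 4.74, 4.33 and 4.91 on the reprogrammed arrays, overlapping. Across the 20 tested pan-epithelial genes, the median difference (reprogrammed minus adult mammary, log2, as everywhere below) was 0.01, against 0.02 over all features. Of these 20 genes, 2 lay wholly higher on the reprogrammed arrays and 4 wholly lower, where 12.3% and 10.9% of all features did so. Elf5, a transcription factor of luminal progenitors, and Esr1, the oestrogen receptor, differed by -0.22 and 0.37 (limma adjusted p = 0.938 and 0.86). Nkx2-1, the defining transcription factor of lung epithelium, was not well above background on any of the 6 arrays. Sftpc, a surfactant protein of alveolar cells, stood between -3.57 and -1.98 on the mammary arrays, against 7.20 and 7.34 on the 2 adult lung arrays with a value. Xist, expressed from the inactive X chromosome of females, stood between -0.30 and 0.59 on all 6 arrays. In these bulk preparations, fewer cells of a type and less RNA per cell cannot be told apart.

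Of 24502 features, 1 passed the threshold (adjusted p under 0.05, limma with Benjamini-Hochberg adjustment), which is 0.00408% of those tested. It was higher in reprogrammed mammary cells, and none was lower. At an adjusted p under 0.1 there were 15 higher and 6 lower, and at an unadjusted p under 0.05, 1339 higher and 1118 lower, or 10.0% of the features. A difference of at least 2-fold was found for 693 features in the upward direction and 507 in the downward one, 4.90% in all. The 3 reprogrammed arrays lay wholly above the 3 adult arrays for 2997 of the 24319 features with a value on all 6 arrays (12.3%) and wholly below them for 2654 (10.9%). The median standard error of a difference was 0.29. How many features passed depended on the fit: weighting arrays by their own spread gave 394 (227 higher, 167 lower), and leaving out the 3 reprogrammed lung arrays, whose median spread of 0.51 is the widest of the groups, gave 129 (81 higher, 48 lower). The latter setting was added after the data had been seen. Reprogrammed mammary arrays had a median spread of 0.20, adult mammary arrays of 0.30.

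**Figure D1:**
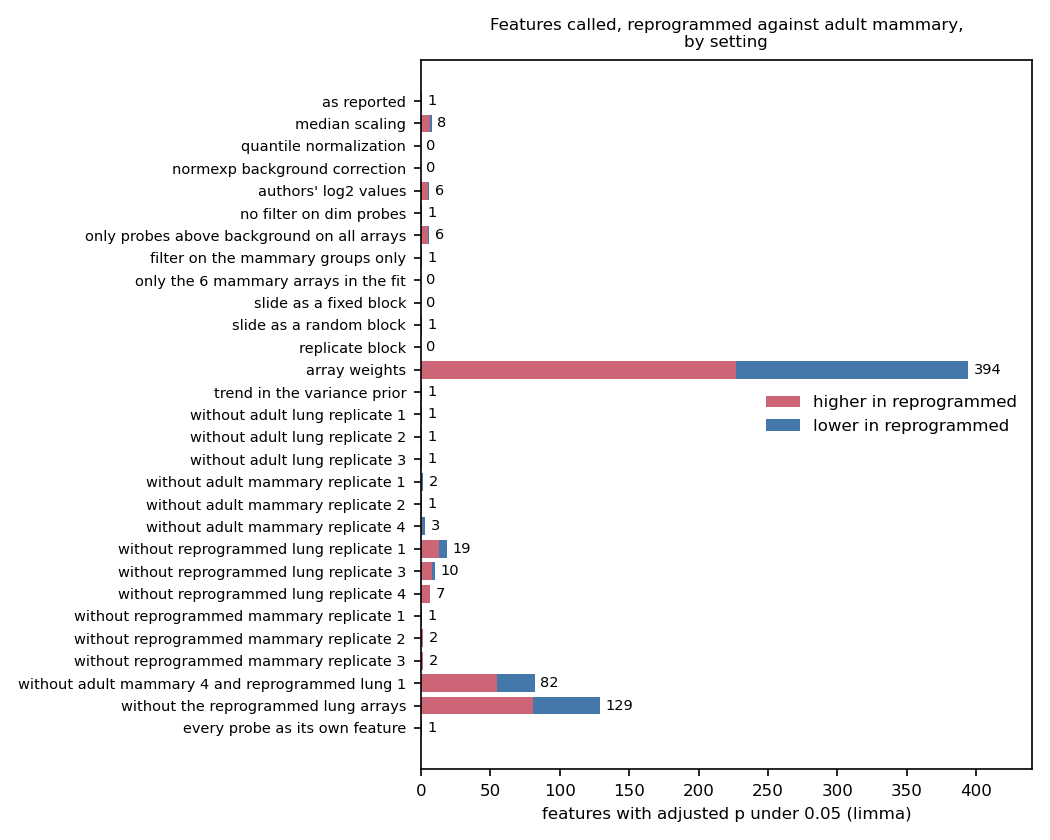
Number of features with an adjusted p under 0.05 (limma) for reprogrammed against adult mammary cells, by setting of the analysis; bars are stacked by direction, start at 0 and carry the total. Weighting arrays gave 394 features, leaving out the reprogrammed lung arrays 129 and leaving out adult mammary replicate 4 together with reprogrammed lung replicate 1 gave 82; every other setting gave between 0 and 19.

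The feature that passed was AK035950, a transcript with an accession but no gene symbol in the table used. Its level was -3.52, -3.91 and -4.12 on the adult mammary arrays and -0.70, -0.81 and -0.86 on the reprogrammed mammary arrays, with no overlap. The difference was 3.06 (SE 0.24, adjusted p = 0.00249), an 8.35-fold higher signal. Reprogrammed lung arrays stood at -0.29, -0.91 and -0.07, near reprogrammed mammary, and adult lung arrays at -4.31, -4.62 and -4.31, near adult mammary. The feature passed in 22 of 27 other settings. It did not pass with quantile normalization, with normexp background correction, in a fit of the 6 mammary arrays alone, or with a fixed block for slide or for replicate number, and the difference ranged from 1.92 to 3.23 over all settings. Within the slides that hold both groups it was 2.82 (replicate 1 of each) and 3.26 (reprogrammed replicate 3, adult replicate 4).

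The 20 leading genes with a symbol, 10 in each direction by the smallest unadjusted p among genes whose arrays do not overlap, all missed the threshold. Every one of them passed when arrays were weighted and 15 passed without the reprogrammed lung arrays, where 1.61% and 0.526% of all features passed. None changed sign in any setting. The genes were chosen by p and by lack of overlap in these same arrays, so neither result is independent support.

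Trim12c and Trim12a, neighbouring genes of the tripartite-motif family, whose members act in antiviral defence, were among the higher ones. Trim12c stood at -4.24, -3.98 and -3.98 in adult cells and at -2.47, -2.04 and -2.12 in reprogrammed cells (difference 1.85, SE 0.23, adjusted p = 0.073). Trim12a stood at -2.23, -2.46 and -1.90 in adult cells and at -1.11, -1.04 and -1.08 in reprogrammed cells (1.12, SE 0.17, adjusted p = 0.0906). All 3 reprogrammed arrays lay above all adult arrays for both, and adult lung, at means of -2.66 and -1.05, lay near the reprogrammed level. Of the 6 tested genes of the Trim12 and Trim30 cluster, 3 did not overlap and were higher, against 12.3% of all features. These include Trim12c and Trim12a, which were picked for not overlapping, so the count is not a separate result on the cluster. The median difference of the cluster was 0.42. A list of 7 tested genes known to differ between inbred strains had 2 wholly higher and 0 wholly lower (12.3% and 10.9% of all features). Its median was 0.42. It holds Trim12a, picked in the same way, and the strains of the groups are not stated. Trim30a and Trim30d, further members of the cluster, differed by 0.15 and 0.42 with overlapping arrays. Trim12c and Trim12a are close copies whose probes may take up each other's transcript, so their values are uncertain as separate measurements. The likeness extends to the sequence before the start sites used: a stretch of 210 bases matched at 172 bases (81.9%) when aligned without gaps. The 38 bases that differ in this alignment are in capitals (RefSeq, GRCm38.p6, minus strand, Trim12c chr7:104353390-104353599, Trim12a chr7:104315496-104315705). Many capitals near the end mark the same bases out of step, where a gap would be needed, so 81.9% understates the likeness.
Trim12c: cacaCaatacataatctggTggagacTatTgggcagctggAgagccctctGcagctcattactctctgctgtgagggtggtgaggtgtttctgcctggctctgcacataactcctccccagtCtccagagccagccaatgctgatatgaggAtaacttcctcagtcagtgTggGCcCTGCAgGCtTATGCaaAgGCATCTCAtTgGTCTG
Trim12a: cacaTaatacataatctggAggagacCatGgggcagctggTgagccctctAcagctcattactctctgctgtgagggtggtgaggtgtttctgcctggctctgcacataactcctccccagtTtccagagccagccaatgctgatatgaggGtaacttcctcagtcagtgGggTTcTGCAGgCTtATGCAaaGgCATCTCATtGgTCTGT

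Tmem168 and Tmem86a encode membrane proteins, the latter a lysoplasmalogenase that breaks down ether lipids. Tmem168 stood at -0.88, -1.31 and -0.80 in adult cells and 0.83, 0.46 and 0.77 in reprogrammed cells (1.68, SE 0.22, adjusted p = 0.073). Its other probe differed by -0.27, so the probes of this gene disagree. Tmem86a stood at -2.32, -3.04 and -2.86 in adult cells and 0.80, -0.66 and 0.82 in reprogrammed cells (3.06, SE 0.41, adjusted p = 0.073), with reprogrammed lung between them at -1.05, -2.16 and -1.52. Fbp1, a fructose bisphosphatase of gluconeogenesis, stood at -3.20, -4.44 and -3.61 against -1.89, -1.85 and -1.93 (1.86, SE 0.27, adjusted p = 0.0906). Pcp4, a small modulator of calmodulin, stood at -1.69, -0.90 and -2.39 against 1.24, 0.71 and 0.61 (2.51, SE 0.40, adjusted p = 0.0934). Both had no overlap. Ptpn5, a tyrosine phosphatase best known from brain, differed by 1.75 and Tacr1, the substance P receptor, by 1.27 (adjusted p = 0.0906 and 0.0901). The other probe of Tacr1 differed by 2.17. Tecta, a protein of the tectorial membrane of the ear, was not well above background on any adult mammary array and was at least 1.86-fold higher in reprogrammed cells (fitted difference 2.38, adjusted p = 0.0901).

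On the lower side, Fxyd2, a regulatory subunit of the sodium pump, stood at 1.03, 0.43 and 1.03 in adult cells and -0.77, -1.99 and -0.65 in reprogrammed cells (-1.97, SE 0.37, adjusted p = 0.169). Slc15a2, a transporter of short peptides, stood at 1.14, 1.29 and 2.63 against -1.08, -0.92 and -0.14 (-2.40, SE 0.48, adjusted p = 0.173). Its second probe differed by -0.78. Adra1a, an adrenergic receptor, stood at -0.72, -0.06 and -2.93 against -4.42, -4.80 and -4.75, with adult replicate 4 the lowest adult value (-3.42, SE 0.66, adjusted p = 0.173), and its second probe differed by -0.40. None of these arrays overlapped on the representing probe. Odc1, the first enzyme of polyamine synthesis, stood at 2.78, 2.79 and 2.77 against 1.74, 2.23 and 1.92 (-0.82, SE 0.16, adjusted p = 0.173). The second probe of Odc1 differed by -0.47, with overlapping arrays. Rpl21, a ribosomal protein gene with many copies in the genome that its probe may also read, differed by -1.22 (adjusted p = 0.0934) while the 42 tested ribosomal protein genes had a median of 0.04. Nanos1, an RNA-binding translational repressor, differed by -1.77. Il12rb2, a subunit of the interleukin 12 receptor, differed by -1.05, Zbtb39, a zinc-finger protein, by -1.02 and Heatr1, a factor of ribosome assembly, by -0.90. The adjusted p of these 4 genes lay between 0.129 and 0.173.

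**Figure D2:**
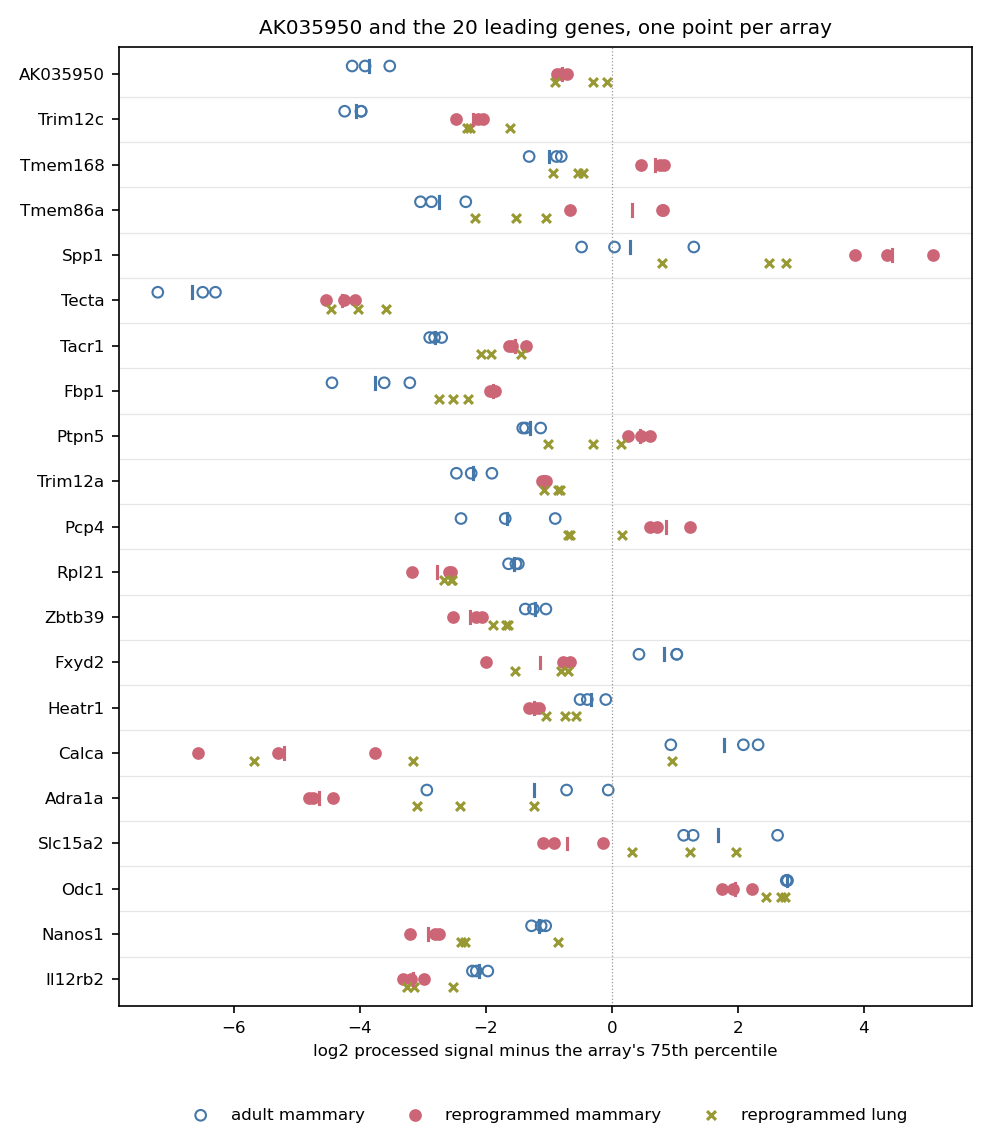
Level of AK035950 and the 20 leading genes on each adult mammary (open circle), reprogrammed mammary (filled circle) and reprogrammed lung array (cross); the x axis is log2 processed signal relative to each array's 75th percentile and vertical ticks are means of the mammary groups. Open and filled circles do not overlap in any row, since the rule for the 20 genes asked for this; Spp1 is the gene with the widest upward gap (4.15) and Calca with the widest downward one (-6.99).

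Members of the lists named below, other than Spp1 and Calca, are the first of their list or were chosen after their values were seen. Of 20 tested genes of milk and secretory luminal cells, 8 lay wholly higher in reprogrammed cells and 0 wholly lower, against 12.3% and 10.9% of all features, and the median difference was 0.72. This median was 0.059 with the replicate number as a block, 1.03 within slide 2 and 0.29 within slide 4. None passed the threshold. With arrays weighted, 2 passed, both higher, where 1.61% of all features passed in either direction. Spp1, osteopontin, a phosphoprotein secreted into milk and made by several other cell types, stood at 0.04, -0.48 and 1.30 in adult cells and 5.10, 3.87 and 4.36 in reprogrammed cells (4.15, SE 0.57, 17.8-fold, adjusted p = 0.073). Lalba, alpha-lactalbumin, the regulatory subunit of lactose synthase, stood at 0.25, -1.51 and -0.16 against 4.29, 2.80 and 3.31 (3.94, SE 0.85, 15.3-fold, adjusted p = 0.186). Neither gene overlapped, and reprogrammed lung stood at 0.80, 2.50 and 2.76 for Spp1, below all reprogrammed mammary arrays, and spread widely for Lalba (-0.91, 3.12 and 1.06). Within the shared slides, Spp1 differed by 5.06 and 3.06 and Lalba by 4.04 and 3.47.

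Other members were closer. Of the 20 tested genes of this list, 6 were at least 2-fold higher and 2 at least 2-fold lower. Over all features 4.90% differed this much in either direction, and the lowest member of the list differed by -1.25. Csn3, kappa-casein, stood at 3.08, 3.65 and 4.50 against 5.30, 4.67 and 4.75 (1.16, adjusted p = 0.691). Btn1a1, butyrophilin of the milk fat globule, stood at 0.95, 0.14 and 0.87 against 2.72, 1.02 and 1.90 (1.23, adjusted p = 0.739), and Mfge8, another globule protein, at 6.26, 5.43 and 5.53 against 6.59, 6.30 and 6.43 (0.70, adjusted p = 0.371). Folr1, a folate receptor, differed by 0.88, Cel, a milk lipase, by 0.90 and Lao1, an amino acid oxidase of milk, by 1.69, of which Lao1 was well above background on 1 of 3 adult arrays. The other caseins and Wap overlapped. Csn1s1, an alpha-casein, stood at -0.73, 4.54 and 2.94 against 3.09, 1.71 and 1.46, and Csn2, beta-casein, at -3.09, 2.59 and 0.01 against 0.33, -2.03 and -2.37. For both caseins the adult arrays enclosed the reprogrammed ones, with adult replicate 2 highest (differences -0.16 and -1.19, SE 1.60 and 2.08). Wap, whey acidic protein, was at -4.28, -2.91 and -3.39 against -2.57, -3.12 and -3.28.

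The hormone-sensing list held 15 tested genes, of which 13 had a value on all 6 arrays. Of these, 5 lay wholly higher and 1 wholly lower, against 12.3% and 10.9% of all features. Of the 15 tested, 7 were at least 2-fold higher and 2 at least 2-fold lower, against 4.90% of all features in either direction. Calca, described below, is 1 of the 2 lower genes. The median difference was 0.43, with 0.65 without adult replicate 4 and a range of 0.21 to 1.11 over settings. Pgr, the progesterone receptor, stood at 3.43, 1.94 and 3.03 in adult cells and 4.48, 4.15 and 4.93 in reprogrammed cells (1.72, SE 0.67, adjusted p = 0.43). Gata3, a transcription factor that maintains luminal cells, stood at 3.06, 2.77 and 3.18 against 4.12, 4.06 and 4.38 (1.18, SE 0.26, adjusted p = 0.186). Prom1, a membrane protein used to mark hormone-sensing cells, stood at -2.18, -3.51 and -2.06 against -0.55, -1.26 and -0.56 (1.79, SE 0.40, adjusted p = 0.194). In each of the 3 genes adult replicate 2 was the lowest array. Ly6d and Ly6a, surface proteins of the same family, differed by 2.82 and 1.04 with no overlap (adjusted p = 0.371 and 0.476), and adult replicate 2 was again lowest for Ly6d at -1.36. Prlr, the prolactin receptor, overlapped (0.43, adjusted p = 0.87). Areg, amphiregulin, the ligand by which hormone-sensing cells drive ductal growth, stood at 3.61, 2.31 and 4.10 in adult cells and at 5.67 and 5.76 on reprogrammed replicates 1 and 3. The spot of reprogrammed replicate 2 was marked as an outlier by the scanner program and left out, so the difference of 2.38 (SE 0.45, adjusted p = 0.173) rests on 2 reprogrammed arrays. The same holds for Ptn, the growth factor pleiotrophin (1.74, adjusted p = 0.488), and Igfbp5, an insulin-like growth factor binding protein of the basal list (1.12, adjusted p = 0.375).

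Calca was the member of the list that lay wholly lower. It encodes calcitonin and the neuropeptide CGRP and had the widest fitted difference of the leading genes. It stood at 2.09, 2.32 and 0.94 in adult cells and at -3.76, -5.30 and -6.56 in reprogrammed cells, where it was well above background on 1 of 3 arrays. The fitted difference was -6.99 (SE 1.33, adjusted p = 0.171), and adult cells were at least 90.2-fold higher when the dim arrays are set to the lowest level marked above background. A second Calca probe differed by -3.20. In reprogrammed lung the level was -3.16, 0.95 and -5.67, with replicate 3 near adult mammary.

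**Figure D3:**
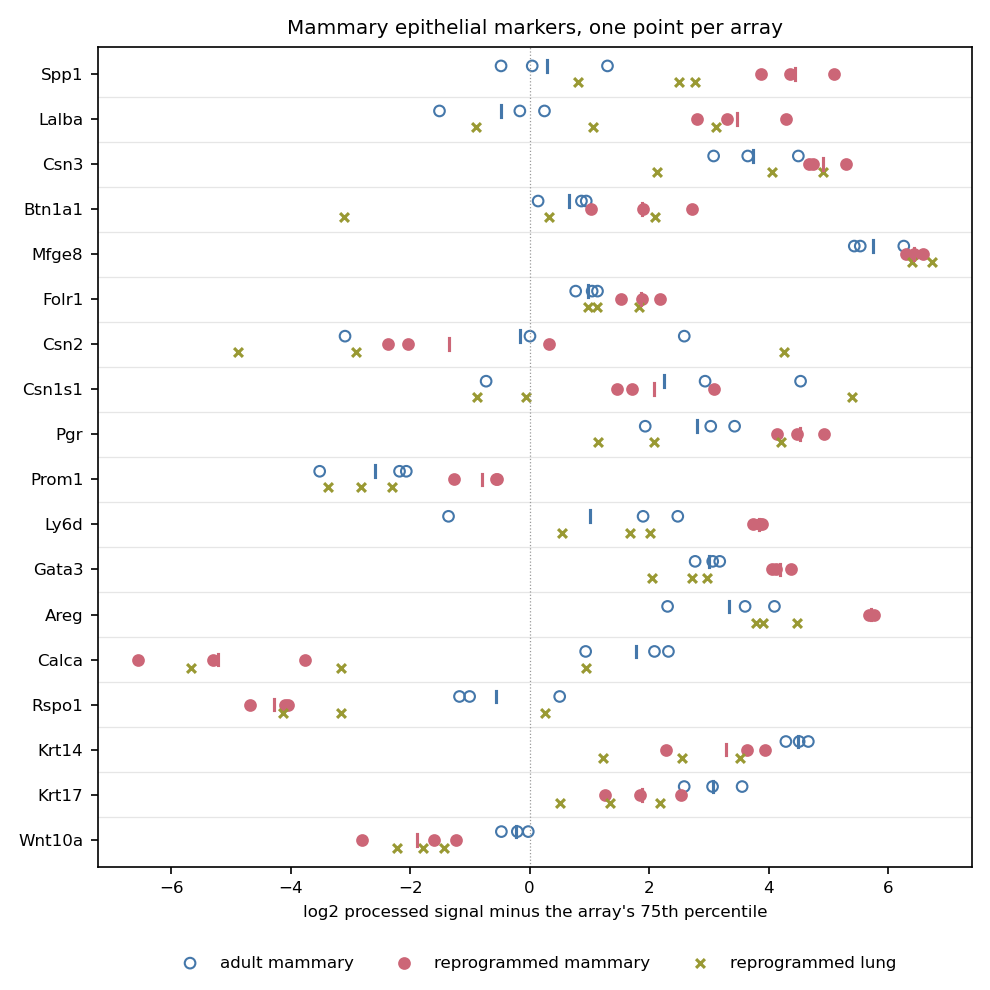
Level of 18 mammary epithelial genes on each adult mammary (open circle), reprogrammed mammary (filled circle) and reprogrammed lung array (cross); the x axis is log2 processed signal relative to each array's 75th percentile and ticks are means of the mammary groups. Lalba, Spp1, Pgr and Gata3 are higher in all 3 reprogrammed mammary arrays, Calca and Rspo1 lower, and the caseins Csn2 and Csn1s1 overlap.

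Upstream sequences of 4 of these genes are shown because these genes had wide differences among the secretory and hormone-sensing lists. Each is 250 bases before an annotated start (RefSeq, GRCm38.p6), and for Spp1 the first of 2 listed starts is used. The Calca window lies inside the annotated gene (chr7:114625981-114636910), before an internal start, so it does not describe the sequence before the gene's outer end. Matches on either strand to TTCNNNGAA (a palindromic motif), TGACGTCA (cAMP response element), the oestrogen response element (GGTCA followed after 3 bases by its reverse complement) and TATAAA (a core promoter element) are in capitals. Spp1 lies at chr5:104434861-104435110 (plus strand), Lalba at chr15:98482684-98482933 (minus), Areg at chr5:91139349-91139598 (plus) and Calca at chr7:114636358-114636607 (minus).
Spp1: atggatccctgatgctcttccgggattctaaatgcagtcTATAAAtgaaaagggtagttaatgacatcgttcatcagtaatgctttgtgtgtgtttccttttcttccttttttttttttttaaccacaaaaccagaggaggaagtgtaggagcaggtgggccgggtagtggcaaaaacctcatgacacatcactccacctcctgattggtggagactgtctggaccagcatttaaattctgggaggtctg
Lalba: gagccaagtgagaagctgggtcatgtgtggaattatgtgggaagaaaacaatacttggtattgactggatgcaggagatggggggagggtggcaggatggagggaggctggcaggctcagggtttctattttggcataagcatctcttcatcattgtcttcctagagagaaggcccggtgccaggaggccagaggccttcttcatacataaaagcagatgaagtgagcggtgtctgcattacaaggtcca
Areg: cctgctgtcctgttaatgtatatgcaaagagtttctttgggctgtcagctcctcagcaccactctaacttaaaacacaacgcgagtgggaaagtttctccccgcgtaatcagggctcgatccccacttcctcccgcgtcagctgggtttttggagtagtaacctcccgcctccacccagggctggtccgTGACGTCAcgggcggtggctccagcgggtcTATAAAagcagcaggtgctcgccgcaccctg
Calca: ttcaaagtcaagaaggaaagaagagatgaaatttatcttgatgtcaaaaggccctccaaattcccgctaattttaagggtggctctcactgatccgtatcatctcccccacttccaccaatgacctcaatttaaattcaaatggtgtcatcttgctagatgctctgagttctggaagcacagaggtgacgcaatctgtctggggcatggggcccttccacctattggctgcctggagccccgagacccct
Areg held TGACGTCA starting at position -61 and TATAAA at -31 from its start, and Spp1 held TATAAA at -211. No match to any of the 4 motifs lay in the windows of Lalba and Calca, which says only that these letters are not in these windows. Among 32851 such windows, TGACGTCA was held by 1.55%, TATAAA by 12.4%, TTCNNNGAA by 7.02% and the oestrogen response element by 0.0639%. The matches are descriptions of sequence and were not tested for any part in the measured levels.

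In the basal and myoepithelial layer, 3 of 16 genes with complete values lay wholly lower in reprogrammed cells and 0 wholly higher, against 10.9% and 12.3% of all features. The median over 18 tested was -0.07, and -0.29 without adult replicate 4. Krt14, the basal keratin, stood at 4.51, 4.66 and 4.29 against 3.63, 2.28 and 3.95 (-1.20, SE 0.67, adjusted p = 0.585), and Krt17, a related keratin, at 2.59, 3.56 and 3.06 against 1.85, 1.26 and 2.54 (-1.19, adjusted p = 0.433). Wnt10a, a Wnt ligand, stood at -0.47, -0.02 and -0.21 against -1.60, -2.80 and -1.24 (-1.65, adjusted p = 0.619). Reprogrammed replicate 2 was the lowest array for all 3. Krt5, the partner keratin of Krt14, overlapped (-0.52, SE 1.39, adjusted p = 0.938). Lgr5, a receptor for R-spondins, differed by -1.38 (adjusted p = 0.279). Of the 11 tested genes of the luminal progenitor list, 2 lay wholly higher and 3 wholly lower, against 12.3% and 10.9% of all features. Their median was -0.22, and Aldh1a3, a member, lay wholly higher (0.94, adjusted p = 0.7). The lowest member was Rspo1, an R-spondin that amplifies Wnt signals. Rspo1 stood at -1.17, 0.50 and -1.0 in adult cells and at -4.10, -4.05 and -4.68 in reprogrammed cells (-3.72, SE 0.91, 13.2-fold, adjusted p = 0.24). Reprogrammed lung replicate 3, at 0.25, matched the adult mammary level of Rspo1, while replicates 1 and 4 stood at -3.16 and -4.13. Among the 25 tested Wnt pathway genes, 2 lay wholly higher and 5 wholly lower, against 12.3% and 10.9% of all features, with a median of -0.03. Wnt5a, a non-canonical Wnt ligand, was on the higher side at 0.10, -1.28 and 0.55 against 2.38, 2.35 and 2.70 (2.69, SE 0.58, adjusted p = 0.186).

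Genes of lymphocytes varied widely within both groups. The median level of the B cell list was -3.36, -3.72 and 0.34 on adult replicates 1, 2 and 4, and -0.51, 0.57 and -3.29 on reprogrammed replicates 1, 2 and 3. T and NK cell genes stood at -3.12, -3.50 and -0.33 against -2.41, -0.11 and -3.43, and MHC class II genes at -1.53, -1.75 and 1.41 against 0.69, 2.02 and -0.45. Adult replicate 4 and reprogrammed replicate 2 had the highest medians of all 3 lists, and reprogrammed replicate 1 came next. Of the 16 B cell, 20 T and NK cell and 10 MHC class II genes tested, 0, 1 and 0 lay wholly higher and none wholly lower, against 12.3% and 10.9% of all features. The median differences were 0.90, 0.12 and 0.87. Without adult replicate 4 these medians were 2.01, 1.24 and 1.56. Within slides they pointed in opposite directions, with B cell genes at 2.06 for replicate 1 of each group and -3.05 for reprogrammed replicate 3 against adult replicate 4. Ms4a1, the B cell antigen CD20, stood at -7.27, -7.33 and -1.85 against -1.99, -0.09 and -7.64, and Cd3e, a chain of the T cell receptor complex, at -2.45, -2.35 and 2.07 against -0.93, 2.67 and -2.63. The part of lymphocytes in other differences of these groups was not tested.

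**Figure D4:**
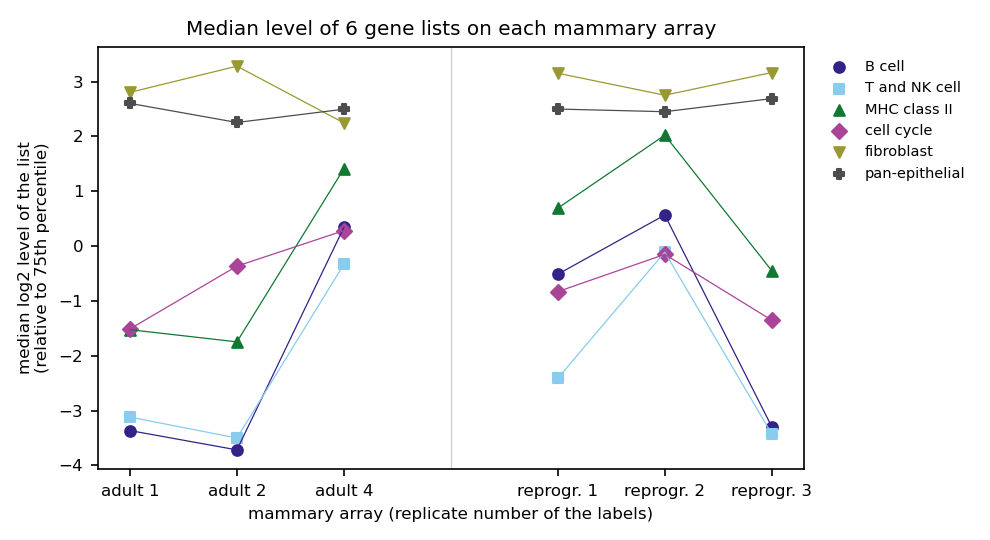
Median log2 level of 6 gene lists (y axis, relative to the array's 75th percentile) on each mammary array (x axis, adult replicates left, reprogrammed replicates right); lines join arrays of a group for the eye only, since replicates have no order. B cell, T and NK cell and MHC class II medians are high on adult replicate 4 and reprogrammed replicate 2, while pan-epithelial medians stay between 2.25 and 2.69.

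Cell-cycle genes had a median difference of -0.55 over 31 tested, with 0 wholly higher and 1 wholly lower, against 12.3% and 10.9% of all features. The median level was -1.51, -0.37 and 0.28 on the adult arrays and -0.83, -0.15 and -1.35 on the reprogrammed arrays, and without adult replicate 4 the median difference was -0.03. Pcna, the sliding clamp of replicating DNA, stood at 2.83, 2.54 and 3.51 against 2.01, 2.27 and 2.22 (-0.79, SE 0.28, adjusted p = 0.378). Mki67 and Top2a, marks of dividing cells, overlapped, with adult replicate 1 lowest for both. The order of arrays in this list resembled that of the lymphocyte lists in that adult replicate 4 and reprogrammed replicate 2 were the highest of their groups.

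Interferon-response genes had a median of 0.44 over 27 tested, with 5 wholly higher and 0 wholly lower, against 12.3% and 10.9% of all features. The median ranged from 0.14 to 0.75 over settings and was -0.10 within slide 2 and 0.25 within slide 4. Xaf1, an interferon-induced gene, stood at 0.48, 0.20 and -0.59 against 1.33, 1.63 and 0.61 (1.16, SE 0.31, adjusted p = 0.273). Reprogrammed replicate 2 stood apart for Igtp, an interferon-inducible GTPase, at 2.78 against 0.42 and 0.42 on the other reprogrammed arrays. The adult arrays of this gene lay at 0.18 to 0.43.

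Of 20 tested fibroblast genes, 19 had complete values, of which 5 lay wholly higher and 0 wholly lower, against 12.3% and 10.9% of all features. Their median was 0.49, and 0.19 without adult replicate 4. Endothelial genes had a median of -0.02 (16 tested, 2 wholly higher, 0 wholly lower), adipocyte genes of 0.25 (17 tested) and macrophage genes of 0.31 (17 tested). Without adult replicate 4 these medians were -0.46, 0.0083 and 0.57. Lyve1, a hyaluronan receptor of lymphatic vessels and some macrophages, stood at -0.12, -1.13 and -1.23 in adult cells and -3.99, -2.44 and -2.93 in reprogrammed cells (-2.30, SE 0.63, adjusted p = 0.277). Cd207, langerin of Langerhans and other dendritic cells, stood at -0.27, -1.50 and -0.53 against -4.17, -4.08 and -5.47, well above background on 2 of 3 reprogrammed arrays (-3.81, adjusted p = 0.24). Both lay wholly lower.

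Several further genes had wide, non-overlapping differences that missed the threshold and were chosen after their values were seen. Aoc1, a diamine oxidase that breaks down histamine and putrescine, stood at -2.65, -6.77 and -3.29 in adult cells, where 2 of 3 arrays were well above background, and at 3.54, 0.23 and 2.87 in reprogrammed cells. It was at least 58.2-fold higher in the latter (fitted difference 6.45, SE 1.26, adjusted p = 0.173). Man1a, a mannosidase that trims N-glycans in the Golgi, stood at -0.07, -0.63 and -0.22 against 2.97, 2.04 and 3.10 (3.01, SE 0.53, adjusted p = 0.125), and its other probes differed by 2.98 and 2.13. Tmed3, a cargo receptor of early secretory vesicles, stood at 4.77, 3.61 and 4.16 against 6.32, 5.84 and 6.26 (1.96, SE 0.33, adjusted p = 0.11). Peptidylarginine deiminases, which convert arginine to citrulline in proteins and whose genes adjoin on chromosome 4 (GRCm38.p6), were among them. Padi2 stood at -0.65, -2.29 and -1.17 against 1.29, 1.62 and 1.63 (2.88, SE 0.48, adjusted p = 0.109). Padi3 and Padi4 differed by 1.43 and 2.13 with no overlap (adjusted p = 0.131 and 0.138), the other probes of Padi4 by 3.66 and 4.05, and Padi1 by 0.37 with overlap. Ngfr, the low-affinity neurotrophin receptor, stood at 0.27, 0.38 and 0.26 against 2.42, 3.46 and 2.86 (2.61, SE 0.68, adjusted p = 0.255). Mup1, Mup4 and Mup5, major urinary proteins that bind pheromones, differed by 3.88, 2.19 and 1.94 (adjusted p = 0.224 to 0.251). The Mup genes are near-identical copies, so their probes cannot be read as separate measurements, and reprogrammed replicate 3 was the lowest reprogrammed array for all 3. On the lower side, Alox12e, an epidermal lipoxygenase, stood at 2.27, 0.53 and 1.45 against -2.74, -2.15 and -4.71 (-4.62, SE 1.58, adjusted p = 0.371). Fgg, a fibrinogen chain, stood at -0.71, -0.79 and -1.74 against -4.00, -3.49 and -3.33 (-2.53, SE 0.78, adjusted p = 0.333).

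Over all 56 lists, 863 distinct genes were tested and 0 passed. Of the 836 with complete values, 118 (14.1%) lay wholly higher and 60 (7.18%) wholly lower, against 12.3% and 10.9% of all features. Medians lay between -0.3 and 0.3 for 41 lists, above 0.3 for 14 and under -0.3 for 1, the cell-cycle list. Among 17 amino acid transporters, 6 lay wholly higher and 0 wholly lower (median 0.26, and 0.067 within slide 4). Slc7a2, a transporter of arginine and lysine, stood at 1.85, 0.68 and 1.45 against 2.80, 1.87 and 2.83 (1.17, adjusted p = 0.503), and Slc36a1, a proton-coupled transporter of small amino acids, at -2.72, -2.71 and -2.13 against -1.76, -1.96 and -2.01 (0.60, adjusted p = 0.394). Of 17 acute-phase and innate defence genes, 3 lay wholly higher and 1 wholly lower (median 0.53). Lcn2, an iron-scavenging lipocalin, differed by 1.15 and Il6, interleukin 6, by 1.18, both without overlap. Oxidative phosphorylation (30 tested), glycolysis and hypoxia (23) and unfolded protein response genes (16) had medians of -0.01, -0.01 and 0.08.

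**Figure D5:**
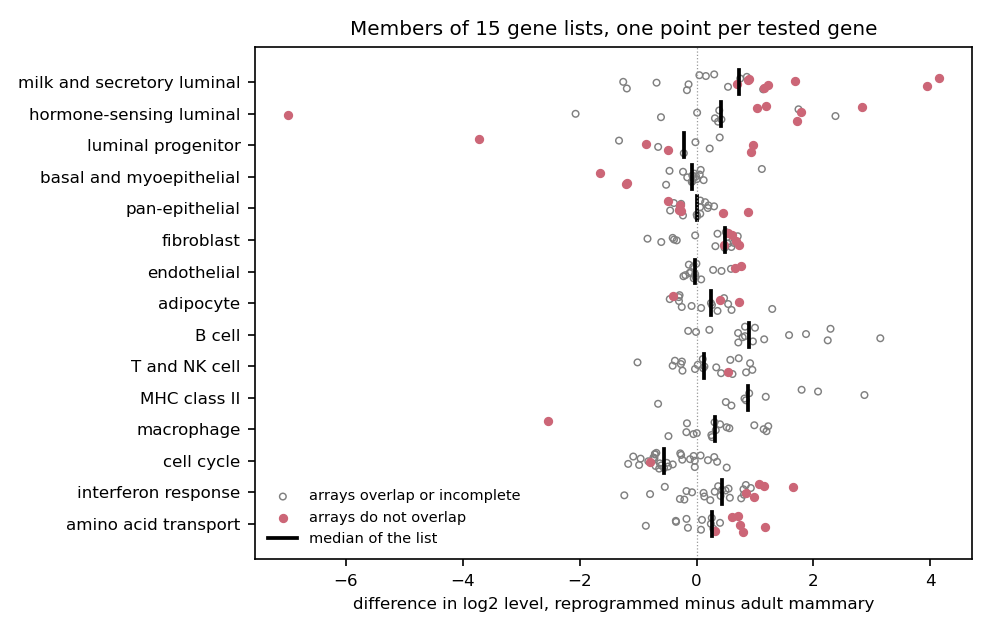
Difference in log2 level (x axis, reprogrammed minus adult mammary) of each tested member of 15 gene lists (y axis); filled points are genes whose 3 and 3 arrays do not overlap, open points overlap or lack a value on an array, and bars are list medians. Milk and secretory luminal genes have a median of 0.72 (0.059 with the replicate number as a block). Of their 20 points, 8 are filled on the upward side, where 12.3% of all features lay wholly higher. The cell-cycle median is -0.55 (-0.03 without adult replicate 4).

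Set against reprogrammed lung, reprogrammed mammary cells had 0 features higher and 2 lower at the same threshold (0.00816% of 24502). These were AK037912, a transcript without a symbol, and Olfr652, an odorant receptor gene, neither well above background on any adult or reprogrammed mammary array. Reprogrammed lung was at least 1.84-fold and 1.89-fold higher, with the dim arrays set to the lowest level marked above background. AK037912 stood between -7.64 and -7.14 in reprogrammed mammary and at -4.55 and -3.85 in reprogrammed lung, where replicate 3 had no value (difference -3.17, adjusted p = 0.0104). Olfr652 stood between -7.17 and -6.67 against -3.63, -4.33 and -4.49 (-2.77, adjusted p = 0.0104). Their values in adult mammary, -7.30 to -6.82 and -7.13 to -6.95, overlapped with reprogrammed mammary. The count was 0 with quantile normalization, with normexp, with a fixed block for slide or for replicate number, and without reprogrammed mammary replicate 1 or 2, and it was 162 without reprogrammed lung replicate 4 and 13 without replicate 3. This comparison shares the reprogrammed mammary arrays with the one against adult cells.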

How the data were processed

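RNA of 12 samples was amplified, labelled with Cy3 and hybridised to one-colour Agilent mouse arrays, per the labels' protocols. The deposited intensity values are processed signals of Agilent Feature Extraction, version 10.5.1.1 per the file headers and 10.1 per the submitters' processing notes. The authors' deposited log2 values of the same arrays, whose centring the sources used here do not give, served as an alternative. The log2 processed signal minus each array's 75th percentile was computed, control and outlier spots were left out, spots of a probe were averaged, and the probe with the highest mean represented a gene. Names came from the RefSeq table (GRCm38.p6). Features well above background on all 3 arrays of at least 1 group were tested with limma 3.58.1 in R 4.3.3 (lmFit and eBayes, a mean for each of the 4 groups, all 12 arrays, Benjamini-Hochberg adjustment, threshold 0.05). The number of arrays limits the precision: an exact permutation test of 3 against 3 cannot go below 0.1. Normexp used the median signal in place of the mean signal. Genes were named as the 10 leading ones in each direction, the first 2 tested of each list where none passed, and their other probes, with further genes said to be chosen after their values were seen. The members and lists were chosen with earlier results of these data known. Alternatives covered scaling, background correction, the filter, slide and replicate blocks, array weights and leaving out each array. Slides were taken from the file headers: slide 2 held replicate 1 of both mammary groups and slide 4 held adult replicate 4 with reprogrammed replicate 3.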

Additional observations from a re-analysis of the deposited data

Results flagged for a closer look

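The change from adult to reprogrammed mammary cells was set against the change from adult to reprogrammed lung cells in the same limma fit (an interaction, Benjamini-Hochberg adjustment over 24502 features). It differed between the organs for 3137 features (12.8%) and for 50 of the 177 named genes. Of the 50, 18 had a higher and 32 a lower change in mammary cells (limma adjusted p between 3.01e-05 and 0.0483). Many named genes were picked by their mammary difference or as markers of an organ, so their share cannot be set against 12.8%. Values are the mammary change minus the lung change in log2, and since they include the lung arrays a large value can come from either organ. The sign of a value does not give the direction of the mammary change. Where a probe was not well above background on every array of a group, the fitted difference is not a bound and its size is uncertain. That holds for Nkx2-1, Sftpa1 and Akap5 in mammary and reprogrammed lung cells, for Calca in reprogrammed mammary, reprogrammed lung and adult lung cells, and for Csn1s1, Csn3, Btn1a1, Alox12e, Fgg, Esr1, Cpa3, Wnt10a, Rspo1 and Aldh1a3 in adult lung cells.

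Among lung genes the difference was 10.09 for Sftpc, 9.58 for Scgb1a1, 8.21 for Sftpa1, 7.97 for Nkx2-1, 7.57 for Akap5, 7.36 for Ager, 4.27 for Dynlrb2 and 3.94 for Scgb3a1. For Sftpc the mammary change was 0.75 and the lung change -9.34. Vessel and lymphatic genes gave 3.49 for Lyve1 and 2.33 for Cdh5. Their mammary changes were -2.30 and -0.05 and their lung changes -5.79 and -2.38, so neither was raised in reprogrammed mammary cells. Among the genes leading in mammary cells it was 2.21 for Tmem86a, 1.47 for Ptpn5, 1.25 for Trim12c and 0.99 for Trim12a. It was also 2.21 for Slc1a4, 1.78 for Xaf1, 1.76 for Notch1 and 1.39 for Zeb1.

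Among mammary epithelial genes the difference was -10.74 for Calca, -8.82 for Csn1s1, -8.65 for Csn3, -5.98 for Rspo1, -5.62 for Btn1a1, -5.29 for Wnt10a, -5.15 for Ptn, -5.07 for Aldh1a3, -4.98 for Prlr, -4.29 for Esr1, -3.59 for Krt17, -2.85 for Elf5, -2.27 for Igfbp5, -1.70 for Gata3 and -1.37 for Mfge8. For Calca the mammary change was -6.99 and the lung change 3.75, the latter with reprogrammed lung arrays far apart. For Csn3 the mammary change was 1.16 and the lung change 9.81, and for Csn1s1 they were -0.16 and 8.66. The mammary change was positive, with a larger lung rise, for Csn3, Btn1a1, Ptn, Aldh1a3, Prlr, Esr1, Igfbp5, Gata3 and Mfge8. It was negative for Calca, Csn1s1, Rspo1, Wnt10a, Krt17 and Elf5. Lipoxygenase and acute-phase genes gave -9.37 for Alox12e and -6.39 for Fgg. Genes leading on the lower side in mammary cells gave -4.40 for Slc15a2, -3.75 for Fxyd2, -2.47 for Nanos1, -2.35 for Odc1, -1.29 for Rpl21 and -1.28 for Heatr1. The others were -3.40 for Cpa3, -3.31 for Mmp3, -3.06 for Cxcl1, -2.88 for Lgr5, -2.58 for Il6, -2.29 for Igf2, -1.47 for Pcna, -1.28 for Rpl4 and -1.25 for Rpl3.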

How the results depend on the processing

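The count of features passing against adult mammary cells was 1. It was 8 with median scaling, 6 with the authors' log2 values and 6 with only probes above background on all arrays. It was 0 with quantile normalization, with normexp, in the 6 mammary arrays alone and with a fixed block for slide. It was 394 with array weights and, in settings chosen after seeing the data, 82 without adult mammary replicate 4 and reprogrammed lung replicate 1 together and 129 without the reprogrammed lung arrays. Leaving out each array gave 1 to 19, the highest without reprogrammed lung replicate 1, then 10 without its replicate 3, 7 without its replicate 4 and 3 without adult mammary replicate 4. Against reprogrammed lung the count of 2 became 4 with median scaling, 11 without those 2 arrays together, 0 with quantile normalization, normexp and a fixed slide block, and 0 to 162 on leaving out each array. The causes were not tested.

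No label ties same-numbered arrays to one animal, although the mammary arrays numbered 1 also share a slide. With the replicate block both counts were 0, and deviations of same-numbered arrays correlated at 0.117 and -0.236.

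No named gene that passed in the reported fit or in the alternative changed sign, and only AK035950 passed in the reported fit. Over settings, 4427 values of named genes kept both sign and outcome. In 57 genes, 190 values that did not pass changed sign. Another 110 values in 39 genes passed only in the alternative, and 5 values of 1 gene no longer passed. AK035950 ranged from 1.92 to 3.23 and passed in 22 of 27 settings. Of the list medians, 1483 values stayed within the spread and 29 moved.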
